A study of Homo sapiens with 6 samples.

Results

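The mammalian circadian clock is a transcriptional feedback loop that runs in almost every cell, liver cells included. The proteins CLOCK and BMAL1 bind together to E-boxes in DNA and switch on the PER and CRY genes, whose products return to the nucleus and shut CLOCK and BMAL1 off. A second loop is formed by the nuclear receptors NR1D1 and NR1D2 (REV-ERB alpha and beta), which repress BMAL1 and CLOCK at ROR elements, and the output factor DBP carries the rhythm to further genes through D-boxes.

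The 10 genes PER1, PER2, PER3, CRY1, CRY2, CLOCK, BMAL1, NR1D1, NR1D2 and DBP were followed, chosen by symbol among 32750 Ensembl gene IDs. All 10 were present once, and all 10 passed the filter on low counts. The RNA came from LX-2, a widely used human cell line derived from stellate cells, which deposit scar matrix in the liver. Of 6 poly(A) libraries, 3 were from cells transfected with a non-targeting siRNA (wild type per the labels) and 3 from cells labelled as an ATP6AP1 transient knockdown by siRNA. Per the design text, replicates within a condition were biologically independent. The product of ATP6AP1 assists the proton pump that acidifies lysosomes, and the study asked which transcripts respond to its loss.

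The sources used here give no time between transfection and harvest, no synchronising step and no account of how the cells, called activated in the title, were activated. No time course was labelled. For a rhythmic gene, a change in phase and a change in mean level therefore cannot be told apart. Nor can fewer expressing cells be told apart from less RNA per cell, as in any bulk measurement.

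Library totals ran from 15644464 to 19656533 counts. ATP6AP1 itself stood at 116, 117 and 129 CPM (counts relative to the library total after TMM scaling) in the control libraries and at 144, 146 and 140 CPM in those labelled ATP6AP1 siRNA. The target was thus higher, not lower (1.19-fold, edgeR adjusted p = 0.00425), which goes against the label, so a rise or fall of a clock gene is always told by library label and not by ATP6AP1 loss. Of the 9 stellate markers measured, all but DES (desmin) exceeded 1 CPM in some library, and all 8 tested fell, as did 26.6% of all tested genes. Their summed level was 5749 to 6222 CPM in control libraries and 3340 to 3724 CPM in the others, and its part in the results was not tested. Most of that sum was VIM, at 4679 CPM on average in control libraries and 2757 in the others. COL1A1 followed at 1013 and 602 CPM. Of VIM's 50-base windows, 37.8% recur in other transcripts, so its level is uncertain. Summed markers of hepatocytes, endothelium, macrophages and cholangiocytes reached at most 0.181, 1.56, 4.36 and 7.21 CPM in any library.

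The promoters of the 3 repressor pairs are shown for the members that the results compare (PER1 with PER2, CRY1 with CRY2, NR1D1 with NR1D2). The 250 bases before each start in RefSeq's table (GRCh38.p14) were searched on both strands. The letters searched were CACGTG (the E-box), CACGTT (the related E′-box), TTATGNAA (a D-box), TAGGTCA (a ROR element) and TGACGTCA (the cAMP response element). All 10 genes matched the table, with 15 windows because 5 genes have 2 starts. Each sequence runs 5′ to 3′ on the gene's strand, and capitals mark the E-box or E′-box (AACGTG where it lies on the other strand).
PER1: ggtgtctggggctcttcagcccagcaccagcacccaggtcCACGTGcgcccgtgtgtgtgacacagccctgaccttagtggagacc
PER2: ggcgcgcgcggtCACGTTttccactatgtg
CRY1: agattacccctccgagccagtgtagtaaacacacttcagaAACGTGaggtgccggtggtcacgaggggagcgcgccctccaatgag
CRY2: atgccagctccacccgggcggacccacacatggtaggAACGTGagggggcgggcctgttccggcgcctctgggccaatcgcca
NR1D1: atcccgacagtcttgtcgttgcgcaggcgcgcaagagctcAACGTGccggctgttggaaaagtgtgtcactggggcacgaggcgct
NR1D2: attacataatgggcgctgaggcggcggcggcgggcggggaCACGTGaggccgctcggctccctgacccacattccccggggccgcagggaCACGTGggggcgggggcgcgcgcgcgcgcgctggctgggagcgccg

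On GRCh38 these are chr17:8152532-8152617 (minus strand) for PER1 and chr2:238288790-238288819 (minus) for PER2, the latter inside the first exon of other annotated PER2 transcripts. CRY1 is shown at chr12:107093593-107093678 (minus) and NR1D1 at chr17:40100712-40100797 (minus), both upstream of the annotated gene. The CRY2 stretch, chr11:45847250-45847332 (plus), begins in the coding part of another CRY2 transcript's first exon. The NR1D2 stretch, chr3:23945926-23946061 (plus), and the PER1 stretch lie in introns of transcripts that start farther upstream. PER1 and NR1D2 were the 2 genes with an E-box, and NR1D2 had it at 2 positions, 155 and 105 bases before its start. An E-box occurred in 2 of the 15 windows of the clock genes and in 6.34% of all 35116 promoter windows. The E′-box was found in PER2, CRY1, CRY2, NR1D1 and CLOCK, in 5 of the 15 windows, against 4.55% of all windows. D-boxes lay in PER1, PER3 and NR1D2 (3 of the 15 windows, against 3.03% of all windows). A ROR element lay in CRY2 (1 of the 15, against 1.61%) and a cAMP response element in none of the 10 genes (1.65% of all windows). BMAL1 and DBP held none of the 5 motifs in these windows. A match describes the letters only.

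Clock genes moved in both directions, and in each repressor family 1 member rose while its relatives fell or did not pass the test. PER2, CRY2, NR1D1 and BMAL1 rose, CLOCK, NR1D2, DBP and CRY1 fell, and PER1 and PER3 did not pass. That is 8 of 10 called by edgeR's quasi-likelihood test at an adjusted p under 0.05, against 53.3% of the 15372 genes tested. Of all tested genes 26.7% were raised and 26.6% lowered. The median absolute log2 fold change was 0.48 over the 10 genes and 0.32 over all tested genes, and the median signed value was 0.15 against -0.0043. In 8 of the 10 no library of one group reached the range of the other, against 59.5% of all tested genes.

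**Figure D1:**
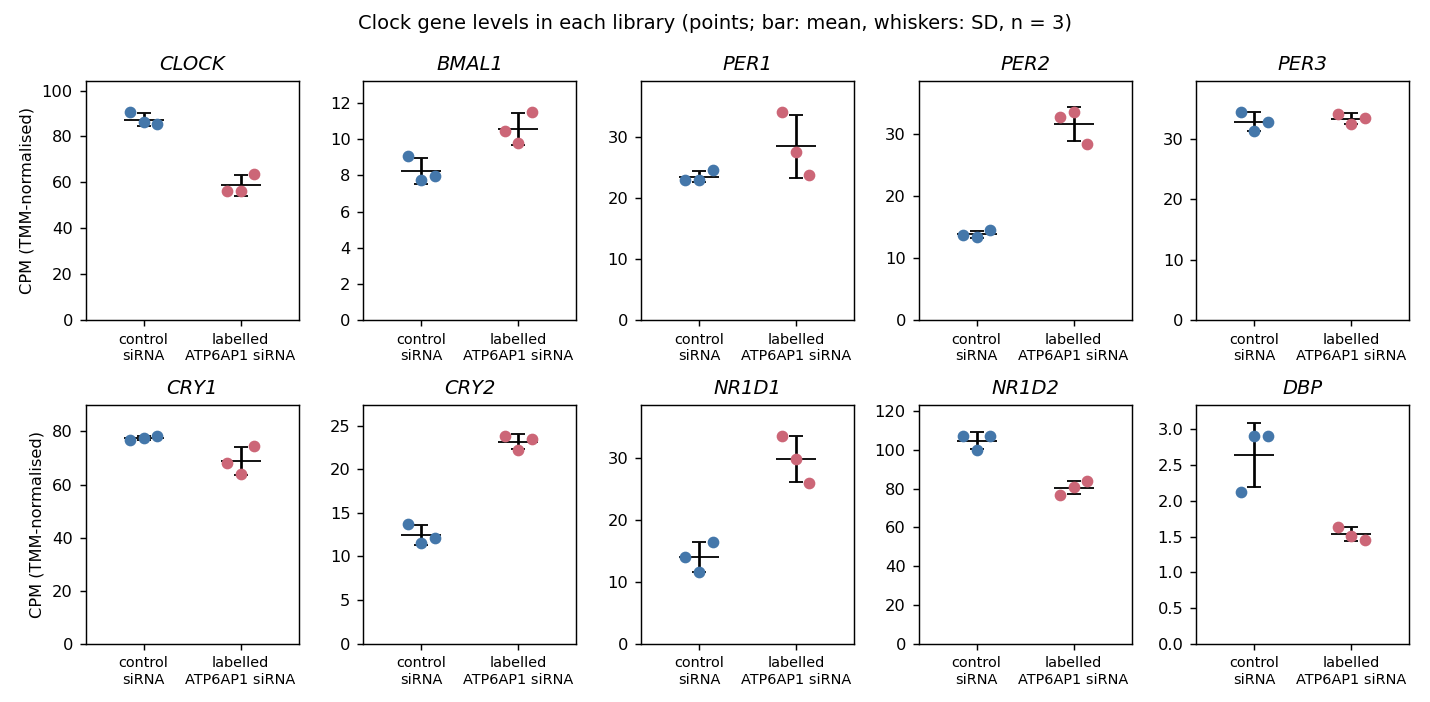
Level of each clock gene in CPM (vertical axis, from 0) in every library, with points for libraries and bars and whiskers for mean and SD of 3. PER2 goes from 13.9 to 31.6 CPM on average and CLOCK from 87.3 to 58.7, with no overlap between groups, while the PER1 and PER3 points overlap.

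Among the period genes, which encode the repressors that accumulate and are then degraded in each cycle, PER2 changed most. PER2 (ENSG00000132326, GRCh38 chromosome 2, 238244044 to 238290102) stood at 13.7, 13.4 and 14.5 CPM with control siRNA. Under the ATP6AP1 siRNA label the values were 32.7, 33.6 and 28.5 CPM. Every library of the second group lay above every control. The means, 13.9 ± 0.554 and 31.6 ± 2.74 CPM (SD over 3 libraries), differed by a 2.28-fold rise with a 95% confidence interval of 1.99 to 2.61 (log2 fold change 1.19, SE 0.0900, edgeR adjusted p = 3.00e-07). A called rise of at least 2-fold was seen in 4.25% of tested genes, and 2.65% had a higher log2 fold change than PER2.

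PER1 (ENSG00000179094, chromosome 17, 8140472 to 8156506), a period gene that cAMP and glucocorticoid signals can switch on acutely, stood at 23.0, 23.0 and 24.6 CPM in control libraries. The libraries labelled ATP6AP1 siRNA had 34.1, 27.6 and 23.8 CPM, spread over a wider range that reached into the control values. Its log2 fold change was 0.27 (SE 0.113, edgeR adjusted p = 0.0577). Without ATP6AP1 siRNA replicate 3, the lowest of its group, the value was 0.39 with an adjusted p of 0.00293, and without replicate 1, the highest, 0.13 with 0.263. The highest adjusted p, 0.270, came with the gene span trend removed.

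PER3 (ENSG00000049246, chromosome 1, 7784291 to 7845177), which is dispensable for the core rhythm in mice, stood at 34.4, 31.4 and 32.9 CPM in control libraries. It stood at 34.1, 32.5 and 33.6 CPM in the others, fully within the same range. The 95% confidence interval of its fold ran from 0.912 to 1.13 (edgeR adjusted p = 0.815).

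The cryptochromes, which bind CLOCK and BMAL1 directly and block them, went apart. CRY2 (ENSG00000121671, chromosome 11, 45847118 to 45883248) was at 13.7, 11.5 and 12.2 CPM in control libraries and at 23.8, 22.2 and 23.5 CPM in those labelled ATP6AP1 siRNA. All 3 of the latter exceeded all controls, a 1.86-fold rise (interval 1.62 to 2.13, log2 fold change 0.89, SE 0.0921, edgeR adjusted p = 4.17e-06). CRY1 (ENSG00000008405, chromosome 12, 106991364 to 107093549) was at 76.6, 77.6 and 78.3 CPM in control libraries and at 68.2, 64.0 and 74.4 CPM in the others. The groups did not overlap, but the gap was narrow. The fall was 1.12-fold (log2 fold change -0.17, edgeR adjusted p = 0.0490), and it passed the threshold in only 2 of 14 alternatives, with adjusted p up to 0.706 when libraries were scaled by size alone.

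NR1D1 and NR1D2 are heme-binding repressors of BMAL1, and they too moved in opposite directions. NR1D1 (ENSG00000126368, chromosome 17, 40092793 to 40100589) was at 14, 11.7 and 16.4 CPM in control libraries and at 33.5, 29.8 and 26 CPM in those labelled ATP6AP1 siRNA. Its lowest value in the second group was well above its highest control, and the rise was 2.13-fold (interval 1.76 to 2.56, log2 fold change 1.09, SE 0.124, edgeR adjusted p = 1.04e-05). NR1D2 (ENSG00000174738, chromosome 3, 23945286 to 23980617) went from 107, 99.6 and 107 CPM to 76.9, 80.9 and 83.7 CPM. All controls were higher, a 1.30-fold fall (interval 1.18 to 1.43, log2 fold change -0.38, SE 0.0620, edgeR adjusted p = 0.000213).

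NR1D1 lies antisense to THRA, a thyroid hormone receptor gene, and 18% of its exon bases overlap THRA's. The sources used here do not say whether reads were counted by strand, so the level of NR1D1 is uncertain. THRA itself had 46.4 ± 0.843 CPM with control siRNA and 33.7 ± 4.71 CPM otherwise (SD over 3 libraries). It thus fell while NR1D1 rose (log2 fold change -0.46, edgeR adjusted p = 0.000839).

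The activator pair also split. CLOCK (ENSG00000134852, chromosome 4, 55427903 to 55546909), a histone acetyltransferase as well as a DNA-binding protein, stood at 90.5, 86.2 and 85.3 CPM in control libraries and at 56.0, 56.2 and 63.8 CPM in the others. The groups were far apart, with a 1.49-fold fall (interval 1.34 to 1.65, log2 fold change -0.57, SE 0.0686, edgeR adjusted p = 1.55e-05). BMAL1 (ENSG00000133794, chromosome 11, 13276652 to 13387266), its partner and the clock gene whose loss alone stops the rhythm in mice, stood at 9.07, 7.73 and 7.95 CPM and then at 10.4, 9.78 and 11.5 CPM. The groups did not overlap, and the rise was 1.28-fold (interval 1.07 to 1.53, edgeR adjusted p = 0.0224). That call was lost with DESeq2 (adjusted p = 0.0986) and without control replicate 2 (0.0758), control replicate 3 (0.0533) or ATP6AP1 siRNA replicate 3 (0.0735), and the lowest adjusted p over the alternatives was 0.00362.

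DBP (ENSG00000105516, chromosome 19, 48630030 to 48637379), a D-box activator driven by CLOCK and BMAL1, was the least abundant of the 10, with 25 to 54 counts in a library. It stood at 2.12, 2.90 and 2.91 CPM in control libraries and at 1.64, 1.51 and 1.45 CPM in those labelled ATP6AP1 siRNA. No value of the second group reached the control range, and the fall was 1.73-fold with a wide interval, 1.22 to 2.43 (log2 fold change -0.79, SE 0.229, edgeR adjusted p = 0.0109). The call was lost with DESeq2 (adjusted p = 0.0781) and without control replicate 2 (0.0525), with a lowest adjusted p of 0.00714 over the alternatives. Of DBP's 50-base windows, 26.6% recur in other transcripts, most often those of the antisense gene SPHK2, a sphingosine kinase gene that stood at 13.1 ± 1.03 and 13.4 ± 1.98 CPM.

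**Figure D2:**
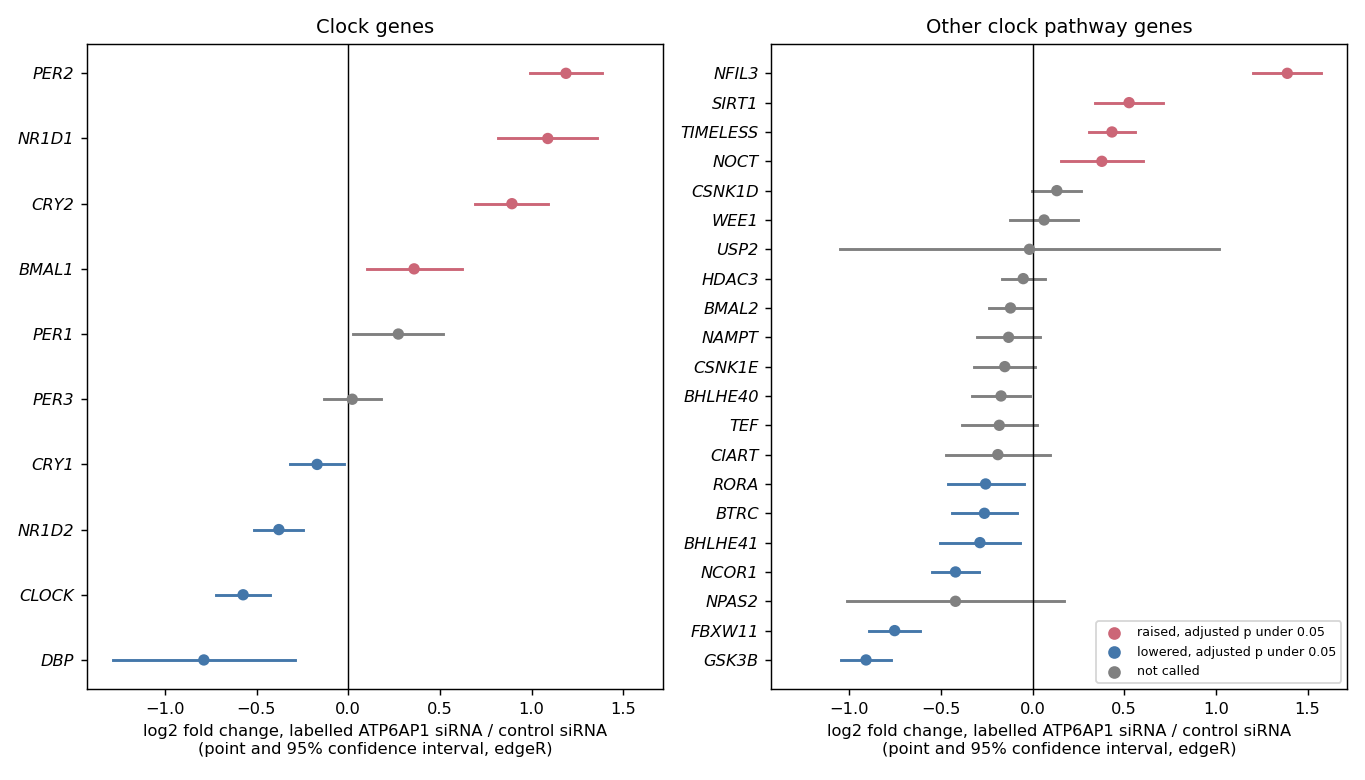
Log2 fold change of the libraries labelled ATP6AP1 siRNA over control (horizontal axis) with 95% confidence intervals computed from edgeR's test. The 10 clock genes are on the left and other tested genes of the clock pathway on the right. PER2, NR1D1 and CRY2 lie between 0.89 and 1.19 on the left, and NFIL3 is at 1.39 on the right.

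Ratios within a library do not depend on how libraries are scaled, so the relatives were also compared that way, on levels divided by transcript length (CPM per kb). The NR1D1 to NR1D2 ratio was 0.260, 0.233 and 0.304 in control libraries and 0.867, 0.733 and 0.617 in the others, a 2.77-fold shift toward NR1D1. The CRY1 to CRY2 ratio was 7.86, 9.46 and 9.06 in control libraries and 4.03, 4.07 and 4.46 in the others, a 2.10-fold shift toward CRY2. PER2 stood at 0.383, 0.413 and 0.425 of PER3 in control libraries and at 0.926, 0.997 and 0.818 of it in the others. The size of a ratio depends on the length used, but its fold shift between groups does not. With the merged exons of all transcripts as the length, PER2 was at 4.46 CPM per kb in the others and PER3 at 4.11. Their libraries overlapped.

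The BMAL1 to CLOCK ratio went from 0.367, 0.329 and 0.342 to 0.683, 0.638 and 0.661, 1.91-fold toward BMAL1, and the PER1 to PER2 ratio was 1.90-fold lower. In these 5 of the 6 pairs compared the groups did not overlap. No share was computed for pairs of other genes, and among single tested genes 59.5% did not overlap. The ratios restate the changes of their members, and the PER pairs share members. With 3 libraries a side, no overlap gives p = 0.10 in the two-sided exact permutation test, the smallest it allows (adjusted p = 0.12 over the 6 pairs). The PER1 to PER3 ratio overlapped between groups (exact permutation p = 0.30). With 3 libraries a side this permutation test cannot pass a threshold of 0.05.

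**Figure D3:**
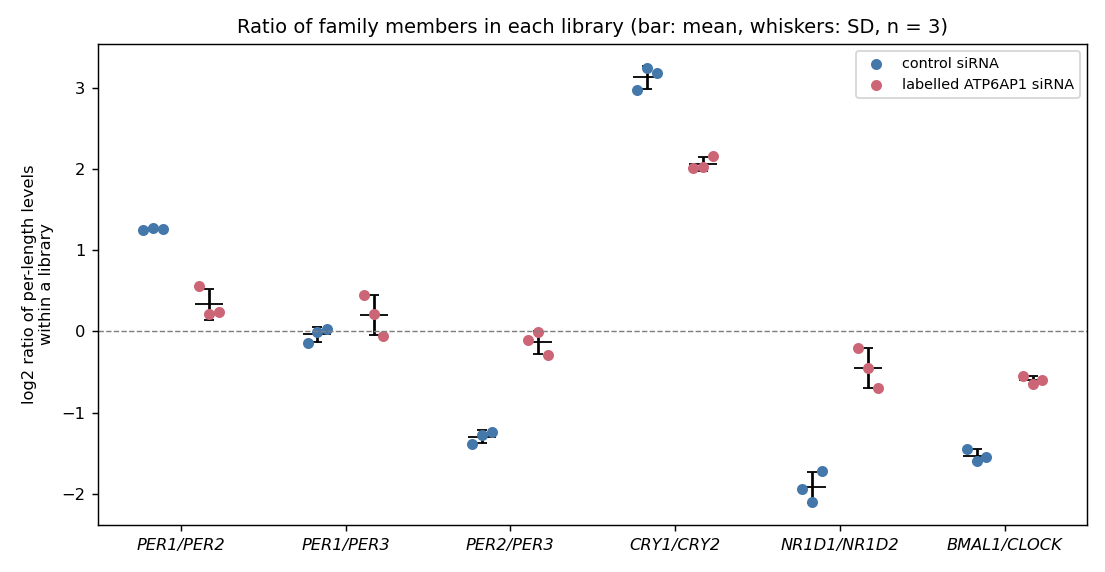
Log2 ratio of the per-length levels of 2 family members within each library (vertical axis), with points for libraries and bars and whiskers for mean and SD of 3. NR1D1/NR1D2 goes from -1.92 to -0.45 and CRY1/CRY2 from 3.13 to 2.06, while the PER1/PER3 points overlap.

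Summed over relatives, the families differed in what was left of these shifts. The 2 cryptochromes together stood at 28.9 ± 0.198 CPM per kb in control libraries and 28.6 ± 1.90 in the others (SD, n = 3 each). CRY2 made up 10.3% ± 0.908 of that total in control libraries and 19.3% ± 0.876 in the others. NR1D1 and NR1D2 together stood at 25.3 ± 1.67 and 26.7 ± 0.781 CPM per kb, with overlapping values, while the share of NR1D1 went from 20.9% ± 2.24 to 42.3% ± 4.14. The 3 period genes together went from 12.3 ± 0.384 to 16.1 ± 1.47 CPM per kb, with no overlap, and PER2's share from 17.1% ± 0.341 to 29.7% ± 1.74. CLOCK and BMAL1 together went from 11.2 ± 0.513 to 9.30 ± 0.712 CPM per kb, again with no overlap. Unlike the ratios and shares, these totals depend on how libraries are scaled, and only TMM scaling was used for them. TMM factors were 0.949 to 0.958 in control libraries and 1.04 to 1.06 in the others. Whether the totals overlap with library size alone was not tested. Totals and shares also depend on the length used. With merged exons as the length, PER2's share went from 20.9% ± 0.438 to 35.3% ± 1.86. In the libraries labelled ATP6AP1 siRNA that was the largest mean share of the 3, and on transcript length the smallest. PER2 and PER3 shares overlapped there on both lengths. BMAL1's share of its pair in control libraries was 25.7% on transcript length and 13.6% on merged exons.

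**Figure D4:**
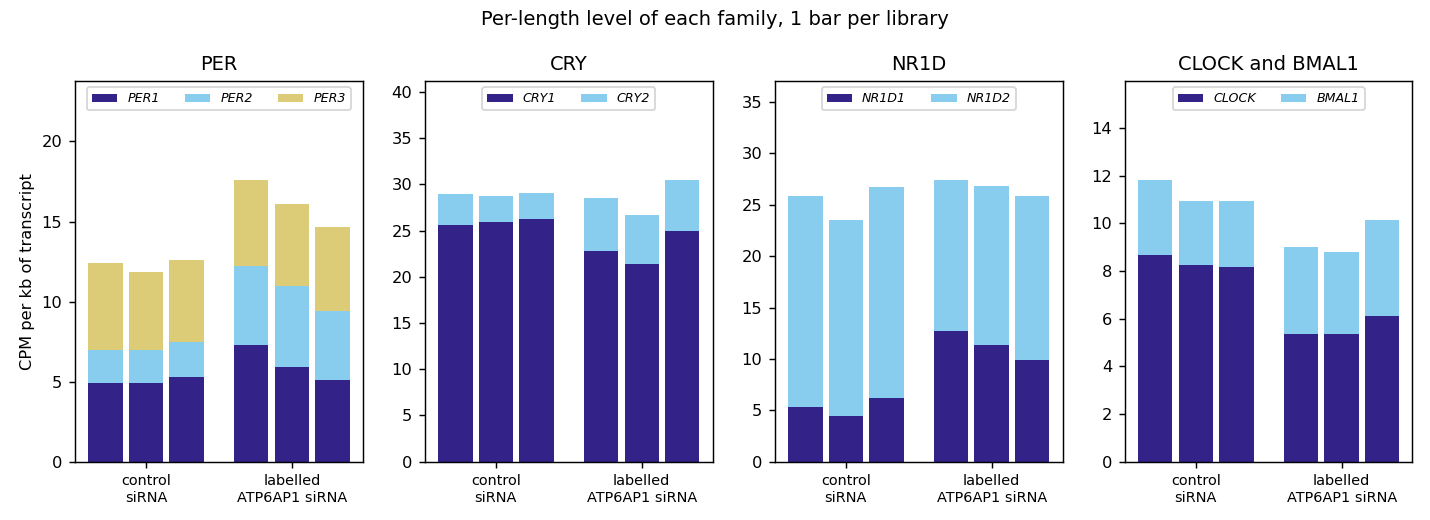
Per-length level (TMM-scaled CPM per kb of transcript, vertical axis from 0) of each family in every library. Each bar is 1 library, with the members of the family stacked. The CRY bars reach 26.7 to 30.5 in all 6 libraries while the CRY2 segment grows from 10.3% to 19.3% of the bar on average.

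By per-length level, the order in control libraries was CRY1 (25.9 CPM per kb), NR1D2 (20.01), CLOCK (8.34), NR1D1 (5.33), PER3 (5.17), PER1 (5.03), CRY2 (2.97), BMAL1 (2.89), PER2 (2.10) and DBP (1.22). The libraries of NR1D1 and PER3, of PER3 and PER1, and of CRY2 and BMAL1 overlapped, so those neighbours were not ordered beyond their spread. In the libraries labelled ATP6AP1 siRNA, NR1D1 at 11.3 CPM per kb came after NR1D2 (15.4), and CLOCK at 5.603 came after PER1 (6.09). PER1, CLOCK, CRY2 and PER3 followed one another with overlapping neighbours. DBP stayed last at 0.706. With the merged exons of all transcripts as the length, NR1D2 (18.1) came before CRY1 (16.2) and PER2 (1.95) before BMAL1 (1.19) in control libraries. On that length CLOCK (5.09) came before PER1 (4.07) in the libraries labelled ATP6AP1 siRNA, and so did PER2 (4.46), though the libraries of PER1 overlapped those of both.

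The median log2 fold change moved with gene span, being -0.15 in decile 9 of protein-coding genes by span (up to 165 kb) and -0.40 in decile 10. CLOCK, BMAL1 and CRY1, spanning 119, 111 and 102 kb, are in decile 9. CLOCK at -0.57 lay below that median and BMAL1 at 0.36 above it, whereas CRY1 at -0.17 lay close to it. With the trend on span removed, the log2 fold changes were -0.44 for CLOCK (edgeR adjusted p = 0.00011), 0.47 for BMAL1 and -0.079 for CRY1 (adjusted p = 0.328). PER2, CRY2 and NR1D2 share decile 6, whose median was 0.056.

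**Figure D5:**
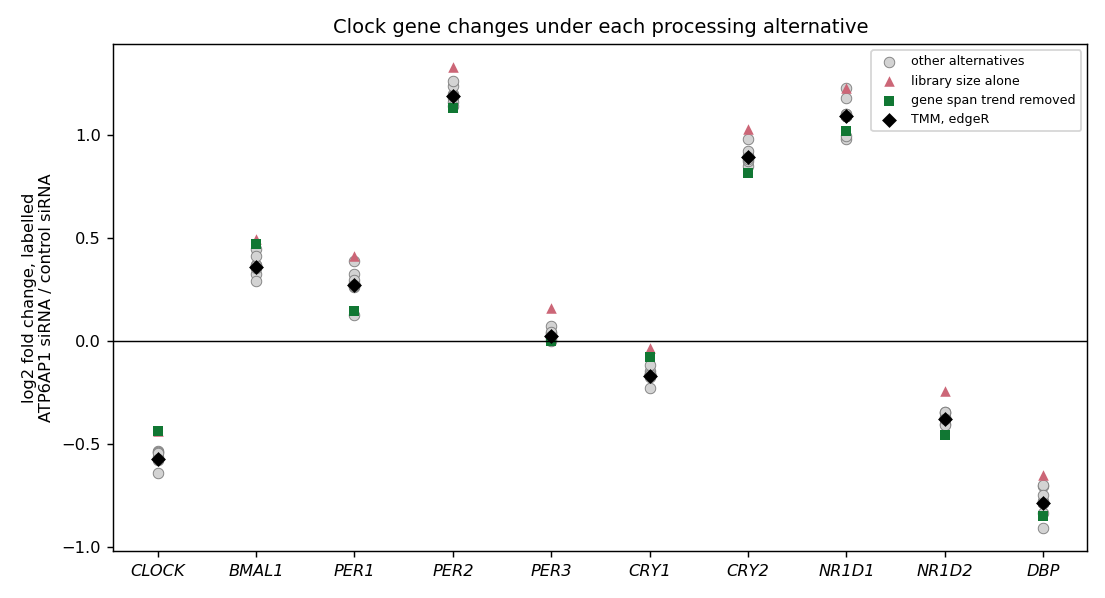
Log2 fold change of each clock gene (vertical axis) under the main edgeR test and each alternative. PER2, CRY2, NR1D1 and BMAL1 stay above 0 and CLOCK, NR1D2, CRY1 and DBP below it in every alternative that gave a value (DBP was not tested with the 5 CPM filter), while PER3 straddles 0 at -0.0013 to 0.16.

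Of 26 further genes of the clock pathway, 22 were tested, and 5 rose and 6 fell, 50% called against the 53.3% background. RORB, HLF and PPARGC1A were among those that did not pass the filter. NFIL3, a D-box repressor that opposes DBP, had the largest rise of the list, with 18.6 ± 1.57 CPM in control libraries and 48.7 ± 3.39 CPM in the others (SD over 3 libraries, 2.62-fold, interval 2.30 to 2.98, edgeR adjusted p = 5.90e-08). The D-box activator TEF did not pass (log2 fold change -0.18, adjusted p = 0.126). RORA, the activator that competes with NR1D1 and NR1D2 at ROR elements, fell by 0.26 on the log2 scale (adjusted p = 0.0380). It went from 15.2 ± 1.13 to 12.7 ± 0.463 CPM. The gene spans 741 kb, in decile 10 by span, whose median log2 fold change was -0.40.

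Among genes that act on PER and CRY proteins or bind them, the kinase GSK3B fell 1.88-fold (edgeR adjusted p = 1.28e-07). Its levels were 111 ± 0.712 and 59.0 ± 3.23 CPM (SD over 3 libraries). FBXW11 and BTRC, the paired ubiquitin ligase adaptors that mark PER proteins for destruction, fell by 0.75 and 0.26 on the log2 scale (adjusted p = 7.94e-07 and 0.0170). GSK3B spans 274 kb, BTRC 203 kb and FBXW11 145 kb, in deciles 9 and 10 by span. TIMELESS, a replication fork protein that also binds cryptochromes, rose by 0.43 (adjusted p = 3.93e-05). The casein kinases CSNK1D and CSNK1E, which phosphorylate PER proteins, did not pass. Of their 50-base windows, 33.6% for CSNK1D and 45.8% for CSNK1E recur in other transcripts, so both values are uncertain.

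In the E-box repressor group BHLHE41 fell by 0.29 (edgeR adjusted p = 0.0300), while BHLHE40 at -0.17 and CIART at -0.19 did not pass. NPAS2 and BMAL2, alternative partners of BMAL1 and CLOCK, did not pass either. BMAL2 was abundant, at 169 ± 4.95 CPM in control libraries and 155 ± 1.90 in the others. NPAS2 had only 19 to 32 counts in a library and a wide log2 interval, -1.01 to 0.17. NCOR1, the co-repressor recruited by NR1D1 and NR1D2, fell by 0.42 (adjusted p = 5.58e-05). It spans 189 kb, in decile 10 by span, whose median log2 fold change was -0.40. NCOR1's partner HDAC3 did not pass (-0.051), and the deacetylase SIRT1 rose by 0.53 (adjusted p = 0.000196). Of 4 tested outputs, NOCT (nocturnin) rose by 0.38 (adjusted p = 0.00788), while NAMPT at -0.13, WEE1 at 0.063 and USP2 at -0.017 did not pass. Of NAMPT's 50-base windows, 41.3% recur in other transcripts, so its value is uncertain.

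Genes tied to acute induction of PER1 and PER2 gave mixed directions. Of 5 tested glucocorticoid genes, TSC22D3 (GILZ) rose by 0.87 and FKBP5 by 0.23, KLF9 fell by 0.57, the receptor NR3C1 fell by 0.77 and SGK1 did not pass (edgeR adjusted p = 7.89e-05, 0.00318, 0.00297, 1.19e-06 and 0.201). Of 9 cAMP and CREB genes, 4 rose, 1 fell and 4 did not pass, 55.6% called against the 53.3% background. CREM and CRTC1 both rose by 0.57, the phosphodiesterase gene PDE4B by 0.52, and SIK2, a kinase that restrains CRTC proteins, fell by 0.19. SIK2 (128 kb) and NR3C1 (158 kb) are in decile 9 by span, and PDE4B (582 kb) is in decile 10. SIK1 rose by 0.55, but 94.2% of its 50-base windows recur in another annotated gene, so its value is uncertain.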

How the data were processed

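RNA from 6 LX-2 cultures was enriched with oligo(dT) beads and sequenced in paired ends, per the labels' protocols. The authors deposited estimated counts, with no normalization, for 32750 Ensembl genes, and 12.3 to 13.9% of the values in a library were not whole. The submitters' processing notes list HISAT2 and featureCounts beside FastQC, Trimmomatic and DESeq2, with the GRCh38 (hg38) build but no versions or roles. How fractions arose, the annotation release and the strand setting were not stated. Symbols, spans and lengths came from GENCODE release 44, and promoters from RefSeq.

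Counts were rounded and filtered with filterByExpr, and 15372 genes were tested in edgeR 4.0.16 by its quasi-likelihood test, two-sided (R 4.3.3, TMM, group as the only term). P-values were adjusted over all tested genes by Benjamini-Hochberg, with a threshold of 0.05. TMM factors were 0.949 to 0.958 in control libraries and 1.04 to 1.06 in the others. Errors are given as SD (3 libraries) or as the fitted SE. Per-length levels used each gene's transcript with the longest coding sequence. No library was a duplicate, since the chi-square between replicates was at least 3.66 per gene.

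The members and lists were chosen with earlier results of these data known. Named genes were the 10 clock genes, ATP6AP1, the overlapping genes THRA and SPHK2, and up to 4 members of each list with the lowest adjusted p, with others of the lists as values. The steps were checked on simulated data. Calls were checked there with few genes changed, whereas 53.3% of tested genes were called here. That check therefore does not cover scaling or false calls where so many genes move. Alternatives were other scalings, filters, DESeq2, a replicate block, unrounded counts, a span correction and leaving out each replicate. Some genes counted in the lists are not reported here by name. ZBTB16, LRAT and TTR were not analysed here.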

Additional observations from a re-analysis of the deposited data

How the results depend on the processing

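PER2, CRY2, NR1D1, CLOCK and NR1D2 kept their direction and stayed past the threshold under all 14 alternatives: other scaling (library size alone, DESeq2 1.42.0's size factors), other filters, DESeq2, the replicate block, unrounded values, the gene span trend removed and each replicate left out. Library size alone shifted the median log2 fold change of all genes by about 0.14, to 0.13, with 5618 genes raised and 2733 lowered against 4110 and 4083. It left 5 clock genes raised and 3 lowered, and 3 other clock genes lowered in place of 6. Lowered clock genes numbered 2 in place of 4 with a filter of 5 CPM in 3 libraries, where DBP was not tested, and 2 with DESeq2. They numbered 2 to 4 with 1 replicate left out, and raised ones 3 to 4.

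CRY1's call was lost with DESeq2 size factors (log2 fold change -0.17, adjusted p = 0.0536), library size alone (-0.032, 0.706), no filter (-0.17, 0.0800), 5 CPM (-0.16, 0.0502), DESeq2 (-0.17, 0.0893), the replicate block (-0.17, 0.0915) and the span trend removed (-0.079, 0.328). With a replicate left out CRY1 ran from -0.23 to -0.12. PER1 passed with library size alone (0.41), no filter (0.28) and 5 CPM (0.28), and ran from 0.13 to 0.39 with a replicate left out. PER3 ran from -0.0013 (without control replicate 2) to 0.071 there, BMAL1 from 0.29 to 0.45 and DBP from -0.91 to -0.70. With DESeq2, BMAL1 was at 0.36 and DBP at -0.79, and neither passed. The causes were not tested. Log2 differences of the within-library ratios kept their sign with any replicate left out, values added after the data were seen.

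Same-numbered libraries did not deviate together (correlations -0.0879, -0.0291 and -0.102), so no pairing by number was seen. With 3 libraries a group such deviations cannot exclude a shared batch. The replicate block called 3619 genes raised and 3576 lowered, and 4 clock genes raised and 3 lowered. DBP, at 25 to 54 counts, is the most limited by depth of the 10 clock genes.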
